A study of Mus musculus with 7 samples.

Results

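The acute-phase and complement genes described here were 10 of the 53715 genes in the deposited expression table: the serum amyloid A genes Saa1, Saa2 and Saa3, the lipocalin gene Lcn2, the haptoglobin gene Hp, the complement genes C3, Cfb and C4b, the pentraxin gene Ptx3 and the serine protease inhibitor gene Serpina3n. They were matched by symbol to mouse Ensembl IDs, and all 10 were found. On GRCm38.p6 the amyloid genes lie together, with Saa3 at chr7:46711998-46719615, Saa1 at chr7:46740497-46743181 and Saa2 at chr7:46751833-46754313. Cfb (chr17:34856374-34862514), C4b (chr17:34728139-34743902) and C3 (chr17:57203967-57228136) share chromosome 17, and Lcn2 (chr2:32384637-32387739), Ptx3 (chr3:66219887-66225806), Hp (chr8:109575128-109579172) and Serpina3n (chr12:104406646-104414334) lie alone. They were picked with the R406 and DMSO values of these libraries in view, so their differences between the groups are given as a description with no test. RNA was sequenced from 2 libraries of cells given R406, the active form of the Syk inhibitor fostamatinib, and 2 libraries of cells given the solvent DMSO. All were passage 3 fibroblasts of embryonic day 13.5 OG2 mice, which carry the Pou5f1-EGFP reporter, kept for up to 12 days in the Stage 1 medium of chemical reprogramming with bFGF, vitamin C, valproic acid, CHIR99021, 616452, Parnate, forskolin, AM580 and EPZ004777. Binding of Nfatc1 was mapped by CUT&Tag in 1 R406 and 1 DMSO library, from fibroblasts of the same strain that received rtTA and a doxycycline-driven Flag-Nfatc1 by lentivirus and were harvested after 4 days of treatment. The factor mapped there was therefore an introduced, tagged one. No source used here gives the concentration of R406 or the day of RNA harvest.

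Acute-phase proteins are plasma and tissue proteins whose synthesis changes when IL-6, IL-1 and related cytokines signal injury or infection, mainly in liver but also in fibroblasts, epithelium and macrophages. The cytokines act through the transcription factors STAT3, NF-kB and C/EBP. Complement is a chain of plasma proteases that starts on antibody, on sugars or by itself, meets at C3 and ends in a pore in the target membrane.

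A C/EBP motif stood near the start of most of these genes. RefSeq (GRCm38.p6, the assembly also called mm10) gave a promoter for 7 of the 10 genes, and the 250 bases before the start were searched on both strands. The C/EBP motif TTGCNNAA was in 6 of the 7, those of Saa1, Saa2, Saa3, Lcn2, C3 and Ptx3, against 9.56% of all 32851 promoters in the table. Serpina3n was the exception. The motif was also found at genes that were almost silent. These were Saa1 and Saa2, whose windows were 94.8% identical, and their neighbour Saa4, which is not a member and had 2 matches. Hp, Cfb and C4b had no promoter to search, so the motif cannot be set against the direction of the members. The NFAT motif TGGAAA was in 3 of the 7, those of Saa3, C3 and Serpina3n, against 18.6% of all promoters. The STAT motif TTCNNNGAA and the NF-kB consensus were in 0 of the 7, against 7.02% and 7.25% of all promoters. No match of one motif overlapped a match of another in these windows. A match describes letters and not a bound site, and a missing match says only that these letters are not in this window. The promoters of Saa3, with the highest level, its silent relative Saa1, Lcn2, C3 and the exception Serpina3n read as follows, 5′ to 3′ on the gene's own strand, with matches to the C/EBP motif (8 letters) and the NFAT motif (6 letters) in capitals.
Saa3: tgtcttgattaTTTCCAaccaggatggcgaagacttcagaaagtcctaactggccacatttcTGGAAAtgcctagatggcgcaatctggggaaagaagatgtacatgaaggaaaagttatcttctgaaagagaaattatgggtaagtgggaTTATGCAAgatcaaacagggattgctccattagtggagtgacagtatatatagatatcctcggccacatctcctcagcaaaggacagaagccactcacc
Saa1: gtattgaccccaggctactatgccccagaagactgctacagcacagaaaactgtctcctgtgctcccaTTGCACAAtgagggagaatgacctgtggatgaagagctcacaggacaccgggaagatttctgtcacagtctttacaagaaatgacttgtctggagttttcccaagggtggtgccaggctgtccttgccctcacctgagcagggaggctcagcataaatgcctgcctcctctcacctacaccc
Lcn2: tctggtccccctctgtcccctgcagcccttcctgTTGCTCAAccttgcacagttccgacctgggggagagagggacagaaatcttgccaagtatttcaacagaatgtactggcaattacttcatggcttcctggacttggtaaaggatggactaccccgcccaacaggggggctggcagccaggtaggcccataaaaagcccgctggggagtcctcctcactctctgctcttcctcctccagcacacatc
C3: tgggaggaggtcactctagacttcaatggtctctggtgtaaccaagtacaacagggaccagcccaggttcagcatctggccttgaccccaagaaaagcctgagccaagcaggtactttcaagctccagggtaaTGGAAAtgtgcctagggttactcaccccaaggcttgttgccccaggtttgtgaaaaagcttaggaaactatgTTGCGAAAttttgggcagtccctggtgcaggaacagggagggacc
Serpina3n: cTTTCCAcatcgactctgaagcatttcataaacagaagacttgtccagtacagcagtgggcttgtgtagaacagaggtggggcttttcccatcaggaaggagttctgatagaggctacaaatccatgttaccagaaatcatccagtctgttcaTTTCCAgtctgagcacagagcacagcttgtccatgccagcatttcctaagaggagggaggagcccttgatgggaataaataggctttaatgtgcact
They lie at chr7:46715677-46715926 on the minus strand for Saa3, chr7:46742981-46743230 minus for Saa1, chr2:32387740-32387989 minus for Lcn2, chr17:57228137-57228386 minus for C3 and chr12:104406458-104406707 plus for Serpina3n. The RefSeq gene spans reach upstream of the starts used for Saa3, Saa1 and Serpina3n, so the Saa3 window lies inside its gene's span and the other two overlap theirs. Counted from the start, the C/EBP match lay at -99 to -92 in Saa3 and at -45 to -38 in C3. In Saa1 and Saa2 it lay at -182 to -175 and at -183 to -176, in windows that were 94.8% identical to each other. The Saa3 window was 52.2% identical to that of Saa1 in a global alignment.

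Saa3, a serum amyloid A gene that in mice is made mainly outside the liver, had the highest level of the 10 genes in R406 cells. It had 811 and 660 TPM in the R406 libraries, against 39.0 and 38.7 TPM in the DMSO libraries, where TPM is StringTie's share of transcripts, scaled to the same total in each library and corrected for length. The groups were far apart and the DMSO libraries nearly equal. Saa3 averaged 736 ± 107 TPM in R406 and 38.9 ± 0.224 TPM in DMSO (SD, n = 2 libraries each, here and below), an 18.9-fold higher level. Its difference of 4.20 on the log2(TPM + 1) scale ranked 6 from the top among the 13929 genes whose mean reached 1 TPM. Saa3 alone made up 0.0811% and 0.0660% of all TPM in the R406 libraries and 0.00390% and 0.00387% in the DMSO libraries. RefSeq places the predicted gene Gm31882 over part of Saa3, and without strand the reads of both cannot be told apart. In bulk RNA, more cells that express a gene and more RNA per cell cannot be told apart, which holds for every level below.

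The other serum amyloid genes of the same cluster on chromosome 7 were almost silent. Saa1, the main amyloid A gene of inflamed liver together with Saa2, had 0.245 and 0.0808 TPM in R406 and 0.050 and 0.0993 TPM in DMSO, and the groups overlapped. Saa2 was listed at 0.0281 and 0 TPM in R406 and at 0 in both DMSO libraries. Saa1 and Saa2 are near-identical and the symbol of each is listed as a synonym of the other in RefSeq, so their split of reads is uncertain, but their sum stayed under 1 TPM in each library. Saa4, the constitutive amyloid gene between them and Saa3, was listed at 0 in 3 libraries and at 0.0313 TPM in DMSO replicate 2.

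**Figure D1:**
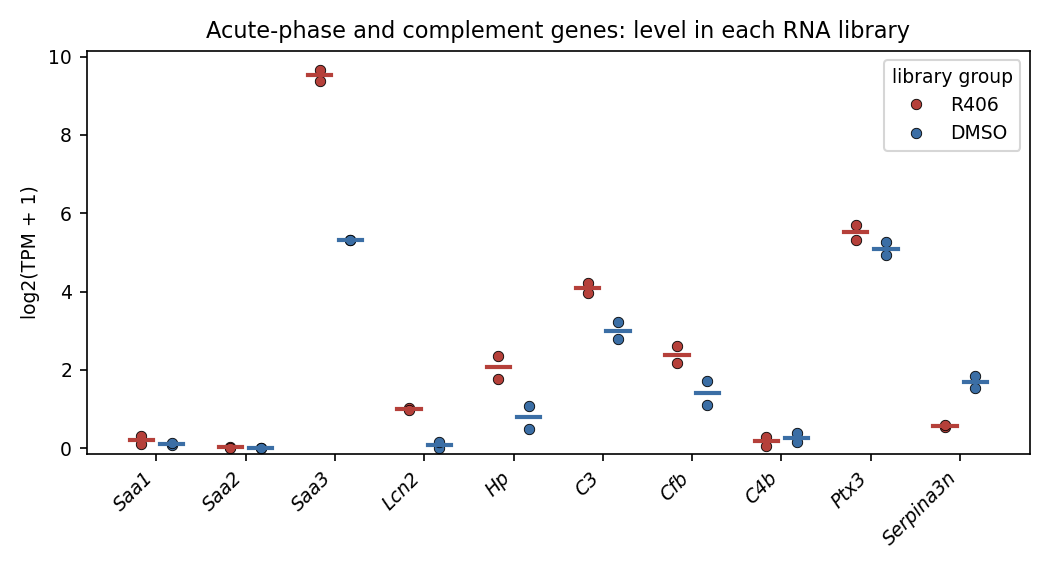
Level of each acute-phase and complement gene in the 4 RNA libraries, as log2(TPM + 1); points are libraries, bars are group means, with R406 left of DMSO. Saa3 lies at 811 and 660 TPM in R406 and near 39.0 TPM in DMSO, while Saa1, Saa2 and C4b lie near 0 in all libraries and Serpina3n is the gene that stood lower with R406.

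The complement genes C3 and Cfb stood higher with R406 by similar ratios, and C4b was near 0. C3, on which all complement routes meet, had 17.7 and 14.5 TPM in R406, against 8.32 and 5.85 TPM in DMSO, a ratio of 2.27. Cfb, which encodes a protease component of the alternative pathway, had 5.12 and 3.48 TPM in R406, against 2.30 and 1.15 TPM in DMSO, a ratio of 2.50. The groups did not overlap in either gene. C4b, the mouse C4 gene of the classical and lectin pathways, was low, at 0.215 and 0.0446 TPM in R406 and 0.298 and 0.122 TPM in DMSO, with overlapping groups. Its near-identical copy C4a had 4.15 and 1.32 TPM in R406, against 0.568 and 0.484 TPM in DMSO, and did not pass the test (log2 difference 1.18 ± 0.41 SE, limma adjusted p = 0.151). Reads of C4a and C4b may have been split between them.

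Among the binding proteins, Hp and Lcn2 were low in each library but higher with R406, and Ptx3 was well expressed and differed little. Hp, which captures free haemoglobin, had 4.13 and 2.43 TPM in R406, against 1.13 and 0.414 TPM in DMSO. Lcn2, which starves bacteria by binding iron-loaded siderophores, had 1.04 and 0.978 TPM in R406, against 0 and 0.119 TPM as listed in DMSO. Ptx3, a pentraxin that binds C1q and microbes, had 51.0 and 39.0 TPM in R406 and 37.3 and 29.5 TPM in DMSO. The 2 groups of Ptx3 came within 2 TPM of each other, and its ratio was 1.35. Serpina3n, an inhibitor of granzyme B and leukocyte elastase, was the single member with both R406 libraries below both DMSO libraries, at 0.466 and 0.513 TPM against 2.61 and 1.88 TPM in DMSO.

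Counted over all 10 genes, both R406 libraries lay above both DMSO libraries in 6, below them in 1, and the groups overlapped in 3. Over all genes tested, 25.9% lay above in this way and 30.2% below. Since the genes were picked from this contrast, nothing is read from that count. The filter on low values, a mean of 1 TPM or more, was passed by 6 of the 10 genes; Saa1, Saa2, Lcn2 and C4b were below it. Levels spanned from Saa3, whose mean was above that of 99.3% of all genes in the table, to Saa2 near 0. Hp, C3 and Cfb had log2 differences of 1.27, 1.09 and 0.98, which ranked 618, 834 and 993 from the top of 13929, and Serpina3n, at -1.12, ranked 624 from the bottom.

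None of the tested genes next to them passed the test. The 2 nearest named genes on each side of each member gave 34 genes, of which 22 were tested. Not all of these are close. Shox2 and Rsrc1 lie 745917 and 755558 bases from Ptx3, and Dicer1 lies 273406 bases from Serpina3n. Limma called 0 of the 22 in either direction, against 8.31% of all genes tested, and the lack of calls in a list this short is not read as a result. An unadjusted limma p under 0.05 was reached by 1 of the 22, against 3736 of all 13929 genes tested. Log2 differences ran from -0.86 to 0.75 and limma adjusted p from 0.144 to 0.977. Saal1, which ends 1308 bases from Saa3, had 6.79 and 5.03 TPM in R406 and 4.47 and 4.65 TPM in DMSO (log2 difference 0.30 ± 0.21 SE, limma adjusted p = 0.440). Next to Cfb on chromosome 17 lie Nelfe, 2 bases away, and the complement gene C2, 88 bases away. Nelfe had a log2 difference of -0.02 and C2, at 8.49 and 7.68 TPM in R406 and 6.56 and 5.64 TPM in DMSO, one of 0.36 ± 0.19 SE (limma adjusted p = 0.977 and 0.313). C2 encodes the classical pathway's counterpart of Cfb. The other tested neighbours of the Saa, complement and Serpina3n genes (Hps5, Gtf2h1, Cd70, Gpr108, Trip10, Skiv2l, Zbtb12, Stk19-ps1, Gsc and Dicer1) had log2 differences between -0.31 in Hps5 and 0.75 in Gsc. Below the filter, Tph1, on the far side of Saal1 from Saa3, had 0.351 and 0.368 TPM in R406 and 1.60 and 1.52 TPM in DMSO. The neighbouring amyloid pseudogene Saa-ps and the Serpina3n paralogs Serpina3m and Serpina3l-ps were listed at 0 in all 4 libraries.

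**Figure D2:**
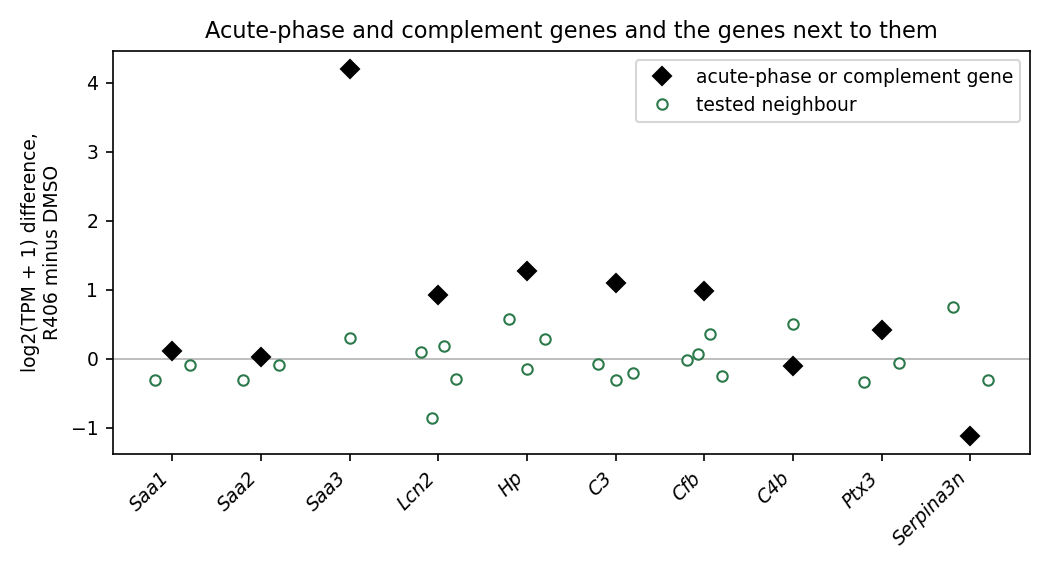
Difference between R406 and DMSO on the log2(TPM + 1) scale for each acute-phase and complement gene (diamonds) and its tested neighbours (circles). The neighbours lie between -0.86 and 0.75. Saa3 lies at 4.20 and the other acute-phase and complement genes between -1.12 in Serpina3n and 1.27 in Hp. The diamonds were picked from this contrast, so their distance from the circles is not read as a result.

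Genes of the wider acute-phase and complement systems rose and fell. Over all 13929 genes, limma on log2(TPM + 1) with Benjamini-Hochberg adjustment called 8.31%, 4.26% higher and 4.05% lower with R406, and the median log2 difference was -0.02. An unadjusted limma p under 0.05 was reached by 3736 of these genes, and the list counts below stand beside that number. The labels do not tie the 2 libraries of a group to separate cultures, and p-values here rest on the spread between libraries, which may be technical in origin. Without the filter on low values limma called 0 of 27879 genes, with 5394 at an unadjusted p under 0.05, so every call named here depends on that filter. The plot of list genes shows where each group of genes lies.

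**Figure D3:**
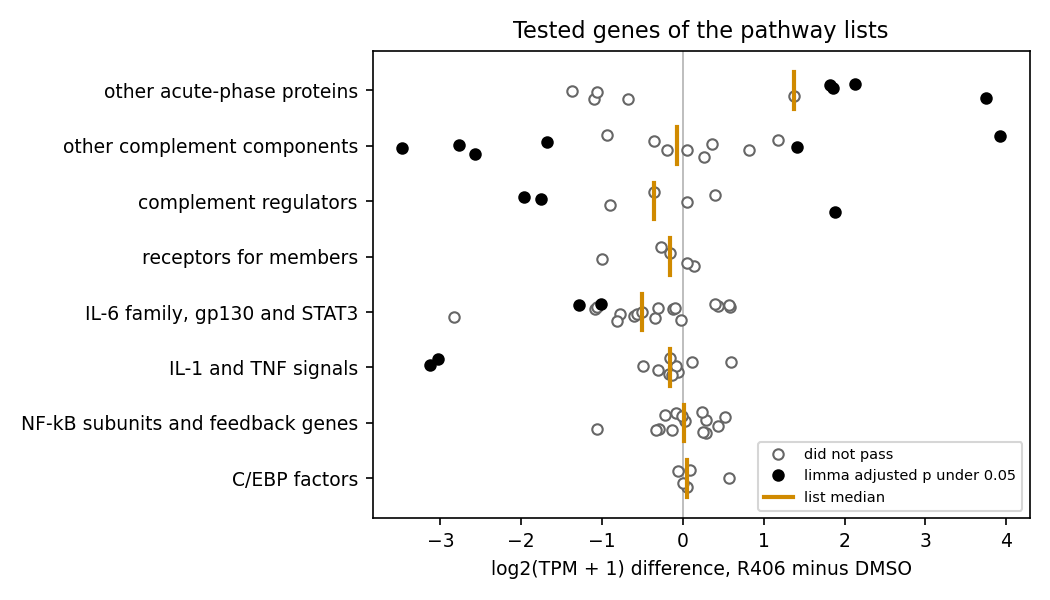
Difference between R406 and DMSO on the log2(TPM + 1) scale for each tested gene of 8 lists related to the acute-phase and complement genes; filled points passed limma's adjusted p of 0.05 and vertical bars are list medians. The acute-phase and complement lists spread to both sides of 0, while the NF-kB and C/EBP lists have no filled point.

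Of 34 other acute-phase genes, 9 reached 1 TPM on average; 4 of these rose and 0 fell by limma's adjusted p. Their log2 differences ran to both sides of 0, with 5 above it and 4 below it, and the list median of 1.37 is the value of a single gene at the gap between them (all median and SE values are log2). All 9 had an unadjusted limma p under 0.05, against 3736 of all 13929 genes tested. Serpina1e, an antitrypsin gene with near-identical paralogs, rose to 33.1 and 20.2 TPM in R406, against 1.25 and 0.778 TPM in DMSO (log2 3.75 ± 0.30 SE, limma adjusted p = 0.0125). A2m, the broad protease trap alpha-2-macroglobulin, rose to 9.13 and 8.92 TPM in R406, against 1.61 and 1.96 TPM in DMSO. Serpina3g, a protease inhibitor of the same family as Serpina3n, rose to 26.1 and 22.3 TPM in R406, against 5.73 and 6.56 TPM in DMSO (log2 1.82 ± 0.20 SE), while Serpina3n had the lower level in R406. Hamp2, a paralog of the iron hormone hepcidin, rose to 4.29 and 4.35 TPM in R406 and was listed at 0 and 0.467 TPM in DMSO. The metallothionein genes Mt1 and Mt2 stood at 841 and 1023 TPM and at 358 and 577 TPM in R406, against 1760 and 2128 TPM and 997 and 1388 TPM in DMSO, and did not pass (limma adjusted p = 0.0541 and 0.0691). Lbp had 5.20 and 2.70 TPM in R406, against 11.9 and 7.26 TPM in DMSO. Cp had 1.32 and 0.979 TPM in R406, against 2.83 and 2.05 TPM in DMSO. Neither Lbp nor Cp passed (limma adjusted p = 0.134 and 0.135). The liver acute-phase genes Crp, Orm1 and Fga were listed at 0 in all libraries. Without DMSO replicate 1 the list had 2 risers, as A2m and Serpina3g lost their calls (limma adjusted p = 0.0532 and 0.0617), and with either R406 library left out it had 1 gene that fell.

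Of 24 other complement components, 14 were tested; 2 rose and 4 fell, with a median of -0.07. The risers were Mbl2, which recognises sugars in the lectin pathway, at 18.4 and 17.5 TPM in R406 against 0.0787 and 0.446 TPM in DMSO (log2 3.92 ± 0.23 SE, limma adjusted p = 0.00886), and C1ra, a protease of the first complement complex, at 2.78 and 3.61 TPM against 0.478 and 0.656 TPM in DMSO. The genes that fell were the C1q subunits, which recognise antibody, and the ficolin gene Fcna. C1qb was at 0.404 and 0.0614 TPM in R406, against 16.4 and 9.52 TPM in DMSO. C1qa, C1qc and Fcna had log2 differences of -2.57, -2.77 and -1.69. C1q and Fcna are known as macrophage products, and of 13 macrophage markers 10 were tested and 9 fell, with summed levels of 21.0 and 23.4 TPM in R406 and 262 and 230 TPM in DMSO. Lyz2 made up most of the DMSO sums, with 3.86 and 3.33 TPM in R406 and 207 and 179 TPM in DMSO. Adgre1, below the filter and so not tested, had 0 and 0.0390 TPM in R406 and 0.972 and 0.774 TPM in DMSO. The part of these shifts in the levels of C1q and Fcna was not tested. The lectin pathway protease gene Masp1 was high throughout, at 714 and 639 TPM in R406 and 828 and 723 TPM in DMSO (limma adjusted p = 0.588). C1s1 and Cfd were listed at 0 in all 4 libraries, which may be a failed estimate. Without DMSO replicate 1 the list had 1 riser, since C1ra lost its call, as did Fcna among the genes that fell.

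Complement regulators were split. Of 15, 7 were tested; 1 rose and 2 fell, with a median of -0.35. Serping1, the inhibitor of the first complement proteases, rose to 141 and 143 TPM in R406, against 37.9 and 37.7 TPM in DMSO (log2 1.88 ± 0.17 SE, limma adjusted p = 0.0148). Clu and Cd59a, which hold back the membrane pore at the end of the chain, fell: Clu to 40.9 and 29.0 TPM against 141 and 133 TPM in DMSO, and Cd59a to 5.45 and 9.58 TPM against 26.5 and 27.2 TPM in DMSO. Without DMSO replicate 1 neither Clu nor Cd59a passed, and Cd59a also failed without DMSO replicate 2. The paralog Cd59b had 7.63 and 7.59 TPM in R406 and 6.85 and 7.73 TPM in DMSO (limma adjusted p = 0.884). Of 16 receptor genes for these proteins 5 were tested and 0 passed limma's test, with 1 at an unadjusted p under 0.05 and a median of -0.16. The smallest p values were those of Itgb2, a subunit of complement receptors, at 0.589 and 0.418 TPM in R406 and 2.55 and 1.55 TPM in DMSO, and Tlr4, a receptor proposed for SAA, at 1.06 and 1.37 TPM in R406 and 1.79 and 1.56 TPM in DMSO (limma adjusted p = 0.0725 and 0.435). The median leaves out the receptor genes below the filter. Of these, C5ar1, C3ar1, Itgam and Vsig4 were listed at 0 in both R406 libraries. In DMSO the C5a receptor gene C5ar1 had 2.11 and 1.68 TPM and C3ar1 0.439 and 0.235 TPM. Itgam had 0.256 and 0.156 TPM there and Vsig4 0.270 and 0.136 TPM. Lrp2 went the other way, at 1.15 and 0.717 TPM in R406 and 0.457 and 0.390 TPM in DMSO.

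**Figure D4:**
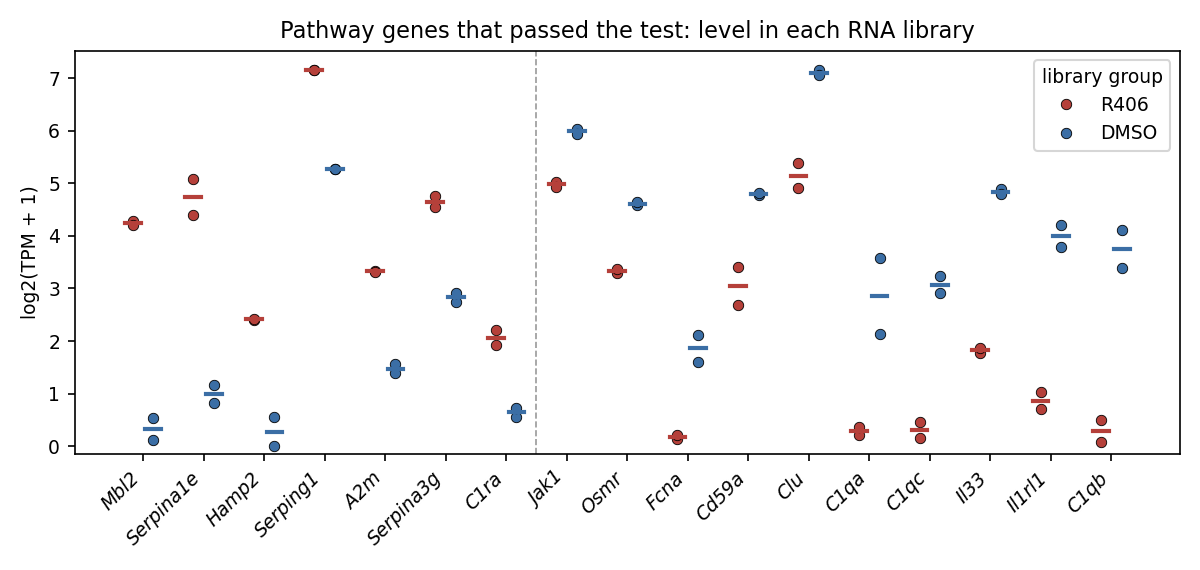
Level in each RNA library, as log2(TPM + 1), of the 17 genes of the pathway lists that passed limma's test; genes that rose with R406 are left of the dashed line and genes that fell are right of it, with R406 points left of DMSO points. The groups do not overlap in any of the 17 genes.

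Of the tested genes of the cytokine signals that drive acute-phase genes, limma called 0 higher with R406 and 4 lower. Calls made up 10.5% of the IL-6 list and 18.2% of the IL-1 and TNF list, against 8.31% of all genes tested. Over all genes 4.26% were called higher and 4.05% lower, so the lack of risers in lists this short is not read as a result. Of 19 tested genes of the IL-6 family, its receptors and STAT3, 0 rose and 2 fell, with a median of -0.51: Osmr, the oncostatin M receptor, at 8.82 and 9.40 TPM in R406 against 22.9 and 24.1 TPM in DMSO, and the kinase gene Jak1, at 31.7 and 29.6 TPM against 64.9 and 60.5 TPM in DMSO (limma adjusted p = 0.0257 and 0.0381). Osmr lost its call without either DMSO library, and Jak1 without any 1 of the 4 libraries. An unadjusted limma p under 0.05 was reached by 9 of the 19 genes, against 3736 of all 13929 genes tested. Of the 9, Lif and Il6ra were higher in R406 and the others lower. Lif had 23.2 and 18.0 TPM in R406 and 14.6 and 12.1 TPM in DMSO. Il6ra had 3.43 and 3.43 TPM in R406 and 1.81 and 2.19 TPM in DMSO. Among those lower, Il6 had 1.86 and 3.98 TPM in R406 and 5.80 and 8.55 TPM in DMSO. Stat3 had 33.1 and 26.5 TPM in R406 and 45.9 and 43.0 TPM in DMSO. Neither Il6 nor Stat3 passed (limma adjusted p = 0.128 and 0.154), nor did Lif and Il6ra (limma adjusted p = 0.178 and 0.140). Junb, a gene induced by these cytokines, was listed at 0 in R406 replicate 2 and at 46.1 to 66.5 TPM in the other libraries, so no fold is given. Among 11 tested IL-1 and TNF genes 0 rose and 2 fell, with a median of -0.16: the alarmin gene Il33, at 2.43 and 2.64 TPM in R406 against 28.8 and 26.7 TPM in DMSO, and its receptor gene Il1rl1, at 0.631 and 1.04 TPM against 17.4 and 12.8 TPM in DMSO (limma adjusted p = 0.00886 and 0.0125). Il1a and Il1b were listed at 0 in all libraries.

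The NF-kB and C/EBP lists gave no calls, against 8.31% of all genes tested, and in lists this short that is not read as a result. Over all 13929 genes tested, 3736 had an unadjusted limma p under 0.05. Of 14 tested NF-kB genes 0 passed limma's test, with 2 at an unadjusted p under 0.05 and a median of 0.01; without R406 replicate 2, 1 of them fell. The smallest p values were those of Ikbkg, a subunit of the kinase complex that releases NF-kB, at 2.40 and 5.07 TPM in R406 and 9.89 and 7.26 TPM in DMSO, and Nfkbiz, a nuclear cofactor, at 8.39 and 7.61 TPM in R406 and 5.18 and 5.31 TPM in DMSO (limma adjusted p = 0.133 and 0.152). Nfkbia, a feedback gene of the pathway, had 96.2 and 89.2 TPM in R406 and 83.1 and 69.5 TPM in DMSO. Of 5 tested C/EBP genes 0 passed, with 1 at an unadjusted p under 0.05 and a median of 0.05. Cebpg had 9.31 and 7.65 TPM in R406 and 4.98 and 5.81 TPM in DMSO, and Ddit3 52.9 and 39.2 TPM in R406 and 52.0 and 43.5 TPM in DMSO (limma adjusted p = 0.164 and 0.903). Cebpb had 432 and 146 TPM in R406 and 405.8 and 145 TPM in DMSO, so its libraries differed far more within a group than between groups. Cebpd had 25.2 and 15.3 TPM in R406 and 22.2 and 17.5 TPM in DMSO. RNA levels do not show the activity of these factors, and a gene that did not pass cannot be read as unchanged.

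Markers of other cell types also differed between the groups. Epithelial markers summed to 815 and 466 TPM in R406 and 155 and 150 TPM in DMSO (7 of 9 tested rose), and extraembryonic endoderm regulators to 296 and 169 TPM in R406 and 41.4 and 47.9 TPM in DMSO (5 of 7 rose). In the list of hepatocyte and visceral endoderm genes, 4 of 10 tested rose and 2 fell, with summed levels of 109 and 56.0 TPM in R406 and 49.1 and 43.7 TPM in DMSO. The list median was 1.35; Apoa1, Apoa4, Cubn and Foxa2 rose, with Foxa2 at 18.1 and 10.8 TPM in R406 and 1.62 and 2.21 TPM in DMSO, while Alb, at 4.22 and 4.77 TPM in R406 and 9.76 and 9.72 TPM in DMSO, and Rbp4 fell. Afp, below the filter, was under 1 TPM in each library. Neutrophil markers summed to 6.42 and 9.42 TPM in R406 and 31.9 and 27.0 TPM in DMSO, with 1 of 2 tested lower and Csf3r, Ngp, Camp and Retnlg at 0 in all libraries. Fibroblast markers were high in each library and summed to 5893 and 4252 TPM in R406 and 4553 and 3699 TPM in DMSO; of 11 tested, the matrix genes Col3a1 and Postn rose and 0 fell, and Thy1 had 837 and 749 TPM in R406 and 1145 and 1065 TPM in DMSO. Of all TPM, 19.4% and 22.4% fell to ribosomal protein genes in the R406 libraries and 14.1% and 15.5% in the DMSO libraries. The mitochondrial share was 6.72% and 10.3% in the R406 libraries and 10.5% and 14.2% in the DMSO libraries. The part of these shifts in the levels of the acute-phase and complement genes was not tested.

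Tagged Nfatc1 had peaks near 7 of the 10 genes in the R406 library and near 3 in the DMSO library. A peak was counted within the RefSeq gene body or 10 kb of it. Of all 21883 protein-coding genes, 59.2% had such a peak in the R406 library, 43.8% in the DMSO library and 41.2% in both, and the R406 list was longer, with 36885 peaks against 21246 in the DMSO list. With 1 library a condition there is no test. Lcn2, Hp and Serpina3n had a peak in both libraries, against 41.2% of all genes, and Saa1, Saa2, Cfb and Ptx3 had one in the R406 library and none in the DMSO library, against 18% of all genes. Saa1 and Saa2 share that peak, which lies between them at chr7:46746142-46746658, with an authors' fold enrichment of 19.0. Peaks found in the DMSO list with no counterpart in the R406 list lay 2398 bases from Lcn2, with a fold of 5.83, and 8105 bases from Serpina3n, with a fold of 7.29. Within 2 kb, 2 of the 10 genes had a peak in the R406 library, 1 in the DMSO library and 1 in both, against 50.4%, 35.8% and 33.2% of all genes. Within 50 kb, 10 had one in the R406 library, 7 in the DMSO library and 7 in both, against 76.8%, 64.5% and 62.8% of all genes.

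Saa3, C3 and C4b had no Nfatc1 peak within 10 kb in either library. The nearest peak to Saa3 lay 26527 bases away in the R406 library, the one between Saa1 and Saa2, and 29005 bases away in the DMSO library. The nearest to C3 lay 18801 bases away in the R406 library and 19293 bases away in the DMSO library, and these overlap each other. Near Lcn2 the peak at chr2:32395321-32396450, which also overlaps the neighbouring gene Ptges2 by coordinates, had a fold of 44.3 in the R406 library, and its counterpart in the DMSO library had a fold of 16.03. Folds are the authors' own and rank peaks only within a list: a lower fold was listed for 97.7% of peaks in the R406 list and 84.0% in the DMSO list. The peak beyond the end of Serpina3n had a fold of 17.7 in the R406 library, above 83.6% of that list, and its counterpart in the DMSO library one of 29.9, above 96.6% of that list. Within Ptx3 the R406 library had a peak at chr3:66220955-66221561, with a fold of 8.86 and a summit 1502 bases from the gene's start. None of the peaks overlapped a printed promoter window.

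**Figure D5:**
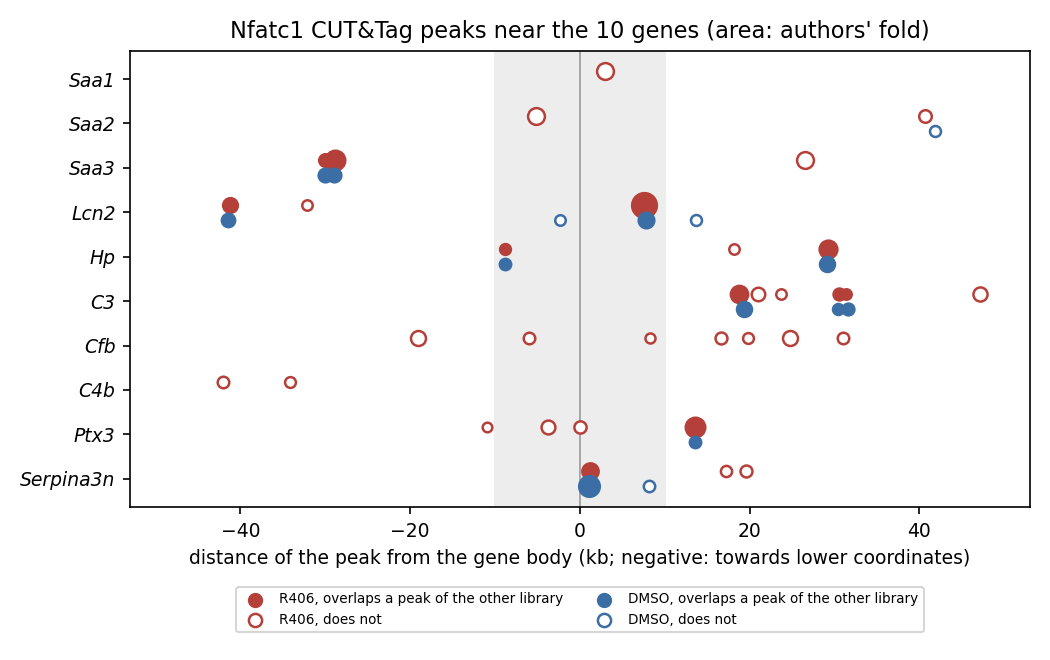
Nfatc1 CUT&Tag peaks within 50 kb of each acute-phase and complement gene, by distance from the gene body in kb; red is the R406 library and blue the DMSO library, the area of a point follows the authors' fold, filled points overlap a peak of the other library, and the grey band is 10 kb on each side. Saa3, C3 and C4b have no point in the band, and Saa1 and Saa2 share 1 peak found in the R406 library.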

How the data were processed

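RNA values were TPM per gene, deposited by the authors as 1 table and 1 file per library; all 4 files equalled the table's columns. HISAT2 2.1.0, StringTie 2.0 and the build mm10 are named in the submitters' processing notes. No source used here gives the annotation or how multi-mapped reads were handled, the labels' kit does not mark strand, and TPM keeps no depth, so counting error is unknown. For CUT&Tag the authors deposited 1 peak list per library with a fold, a score, a −log10 p-value and a −log10 q-value for each peak, and the notes name Bowtie2 2.2.5 and MACS2 2.1.2. The blank library was not analysed here.

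Symbols came from the gene table given, with 53620 of 53715 IDs matched; where a symbol had several IDs the one with the higher mean was used. Tests used limma (version 3.58.1, R 4.3.3) on log2(TPM + 1) for genes whose mean reached 1 TPM, with a trended prior, two-sided, adjusted by Benjamini-Hochberg over all 13929 genes, threshold 0.05; log2 changes on this scale understate those of low genes. The method was tested on simulated data with independent noise in each library. That setting does not cover same-numbered libraries that deviate together. From the list of other acute-phase genes 1 gene is not reported here, and the list's counts and median leave it out. The genes, lists and tests were chosen with earlier results of these data known. Named genes were all members, list genes past the threshold or, where none passed, those with the smallest p, adjacent genes of the clusters, and paralogs. Others (Mt1, Mt2, Lbp, Cp, Lif, Il6ra, Il6, Stat3, Junb, Nfkbia, Cebpb, Cebpd, Masp1, Cd59b, C5ar1, C3ar1, Itgam, Vsig4, Lrp2, Tph1, Shox2, Rsrc1, marker genes and genes listed at 0) were chosen after their values were seen. Alternatives covered pseudocount, filter, scaling, block, prior, left-out libraries, peak window, peak threshold and overlap. Motifs were searched and promoters aligned in Python with Biopython 1.88.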

Additional observations from a re-analysis of the deposited data

How the results depend on the processing

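The counts of calls rested on few libraries and on the filter. No called list gene changed direction under any of 13 alternative fits, but most of these fits could not have reversed one. The groups do not overlap in these genes, so a left-out library or another pseudocount, filter, prior or block keeps the direction. Nothing is read from the kept directions. Over all genes, 593 were higher and 564 lower; leaving out 1 library gave 159 to 914 higher and 158 to 574 lower, lowest without DMSO replicate 1. With no filter on low values, limma called 0 and 0 of 27879 genes (5394 at an unadjusted p under 0.05), and 0 genes of the pathway lists in each direction (54 of 132 at an unadjusted p under 0.05). A mean of at least 5 TPM gave 311 higher and 332 lower, median centring 933 higher, quantile normalization 850 lower, and TPM rescaled without mitochondrial and ribosomal protein genes 900 higher. In the pathway lists 7 rose and 10 fell, against 4 to 9 and 5 to 12 with 1 library left out; 9 of the 17 genes kept their call in each of these fits, and all 8 others lost it without DMSO replicate 1. C1qa also lost its call with a pseudocount of 5 and Hamp2 with 0.1. Of the adjacent genes 0 rose and 0 fell, and 0 to 0 with 1 library left out, while 1 fell with the rescaled TPM. DESeq2 and edgeR were not run, since TPM is not a count.

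Same-numbered libraries of the 2 groups deviated together (correlation 0.556 over genes), but the labels do not say that a number marks a shared culture and there are only 2 pairs. With replicate number as a block, 2128 genes were higher and 2535 lower, 12 pathway genes rose and 23 fell (5 and 4 in the other acute-phase list, where Mt1, Mt2, Lbp and Cp fell, and 1 and 8 in the IL-6 list, where Lif rose and Il6 and Stat3 were among those that fell), and 1 adjacent gene rose and 1 fell.

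For the 10 genes themselves, 6 lay above and 1 below the DMSO libraries; leaving out 1 library gave 6 to 8 above and 1 to 2 below, and median centring 2 below. With a pseudocount of 0.1 in place of 1 the log2 differences of Lcn2 and Hp were 2.91 and 2.04, and with 5 they were 0.25 and 0.52; Serpina3n had -1.98 and -0.40 and Cfb 1.32 and 0.47 in the same settings, while Saa3 stayed between 4.05 and 4.35 in all settings. Peaks were near 2 of the genes in the R406 library and 1 in the DMSO library within 2 kb, and near 10 in the R406 library and 7 in the DMSO library within 50 kb; a shared peak was near 3 genes at 10 kb, 1 at 2 kb and 6 at 50 kb. The causes were not tested. Depth is unknown for TPM, so levels under about 1 TPM have no stated counting error. This holds for Saa1, Saa2, C4b and Lcn2. It also holds for Serpina3n in the R406 libraries (0.466 and 0.513 TPM) and for Hp in DMSO replicate 2 (0.414 TPM).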
